A study of Homo sapiens with 8 samples.

Results

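Mitochondrial ribosomal proteins are encoded in the nucleus, made in the cytoplasm and imported into mitochondria, where they assemble with mitochondrial rRNA into the ribosome that translates the mRNAs of mitochondrial DNA. All proteins made by that ribosome in human cells are subunits of the oxidative phosphorylation complexes, so the mitoribosome links nuclear gene expression to respiration. Its large subunit forms peptide bonds and its small subunit reads the mRNA; each holds proteins with bacterial counterparts and proteins found only in mitochondria.

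The genes were chosen by symbol alone, as protein-coding genes of GENCODE version 44 whose symbol is MRPL or MRPS followed by a number. This gave 78 genes, all present in the count table, among 20045 protein-coding genes and 62639 genes of all kinds. By their known place in the ribosome, 51 belong to the large subunit and 26 to the small subunit. MRPS30 and MRPS18A are counted with the large subunit, where they are found, despite their names. MRPS36 (KGD4), known as a component of the 2-oxoglutarate dehydrogenase complex, was left without a subunit. Of the 77 genes placed, 46 have a bacterial homologue and 31 are specific to mitochondria.

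RNA was from MOLM-13 cells, a human acute myeloid leukemia line, in which a doxycycline (dox) inducible shRNA reduces PTBP1, an RNA-binding protein that regulates splicing. The PTBP1 KD group carried shPTBP1 and the control group a scrambled shRNA (shSCR), with 4 biological replicates each. Cells of both groups had been transduced with lentivirus, made the markers mCherry and, when induced, ΔLNGFR, and received dox for 9 days. With 1 shRNA per group, effects of that shRNA other than loss of PTBP1 cannot be told apart from the KD, and p values measure the spread between these replicates. Nanopore long-read cDNA sequencing gave a count for each annotated transcript, and the counts of a gene's transcripts were summed.

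Library totals were between 1528449 and 1613342 counts. PTBP1 itself had 10 to 23 counts in the shPTBP1 libraries and 64 to 90 in the shSCR libraries, a log2 fold change of -2.26 (SE 0.22, edgeR quasi-likelihood test, Benjamini-Hochberg adjusted p = 7.18e-05). All 10 myeloid and AML marker genes on a fixed list had counts, with a summed level of 667 to 785 normalized CPM (counts scaled to a common library size) in shPTBP1 libraries and 610 to 660 in shSCR libraries. Of the 7 genes on that list that were tested, 5 had a log2 fold change above 0 and 2 below (median 0.0976). The edgeR test called 1 of the 7 (14.3%, against 5.54% of all genes), CSF1R, the receptor for macrophage colony-stimulating factor. CSF1R was lower in shPTBP1 cells, with a log2 fold change of -0.97 (edgeR adjusted p = 0.0375). Its counts were few, 9 to 15 with shPTBP1 and 20 to 28 with shSCR, and DESeq2 gave it no adjusted p. Of 10 markers of other cell types, 5 had counts and CD3E, HBB, MS4A1 and PPBP were at 0 in every library. Whether differences in these markers play a part in the results below was not tested.

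After PTBP1 KD, RNA of the mitochondrial ribosomal proteins stayed close to the control level. MRPS34, a mitochondria-specific protein of the small subunit, was the only member called lower, and no member was called higher. The edgeR test across all 7597 genes with enough counts included 76 of the 78 members, and 1 of the 76 (1.32%) passed an adjusted p of 0.05, against 5.54% of all genes tested. The share called lower among all genes was 3.19% and the share called higher was 2.36%. At an unadjusted p under 0.05 there were 20 members, 6 lower and 14 higher, which is 26.3% of members against 19.2% of all genes (10.1% lower and 9.1% higher). The share of members was thus above that of all genes on the higher side and below it on the lower side. DESeq2 called 1 of the 73 members to which it gave an adjusted p. Among all 16474 genes with counts it called 150 lower and 144 higher. How many of those genes received an adjusted p is not given here, so the 1 of 73 has no matching share.

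The changes were small and well bounded for the abundant members. The median log2 fold change was 0.05 over the 76 members and -0.000141 over all genes tested, and the median size of the change was 0.125 against 0.17. A log2 fold change above 0 was found for 47 members (61.8%), against 3795 of all 7597 genes. The 95% interval of the log2 fold change lay within 0.25 of 0 for 16 members (21.1%, against 8.75% of all genes). It lay within 0.5 of 0 for 52 members (68.4%, against 41.9%) and within 1.0 for 75 (98.7%, against 84.8%). These shares depended on depth, since the 0.5 bound held for 42 of 44 members with a mean of at least 100 counts and for 10 of 32 with fewer. In bulk RNA, fewer cells that express a gene and less RNA per cell cannot be told apart.

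**Figure D1:**
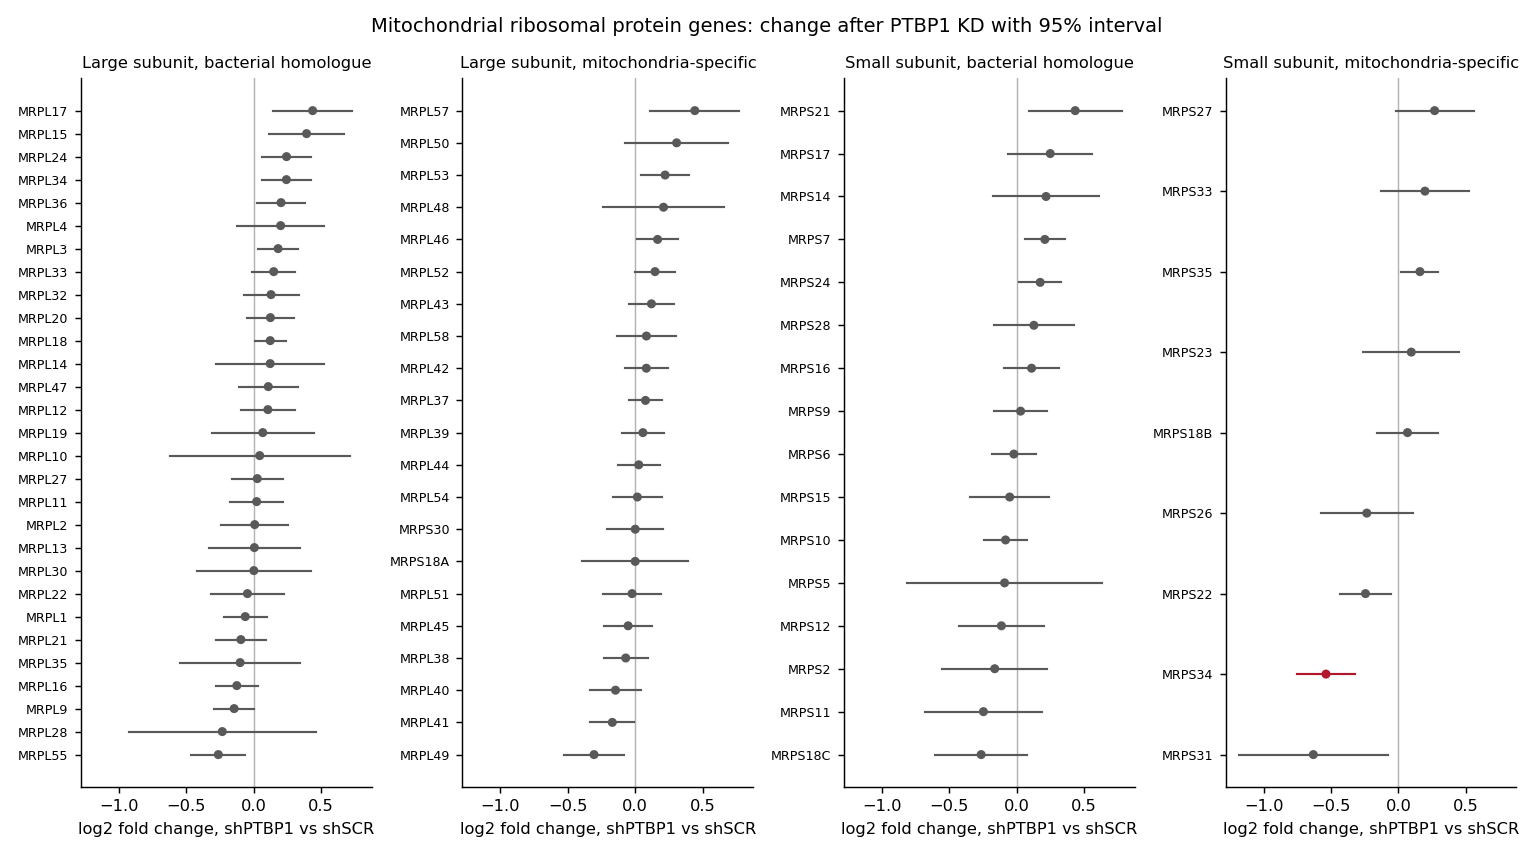
The log2 fold change (x axis, shPTBP1 against shSCR) of the members tested and placed in a subunit is shown as a point with its 95% interval as a line, in 4 panels by subunit and origin, with MRPS34 in red as the only member called. Points lie between -0.63 and 0.44, and the longest intervals belong to members with few counts, MRPS5, MRPL28 and MRPL10.

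MRPS34 (ENSG00000074071.15) lies on the minus strand of chromosome 16, at chr16:1771890-1773150 in hg38. It encodes a protein of the small subunit with no bacterial counterpart, and inherited loss of MRPS34 is known to destabilize that subunit and to cause Leigh syndrome. Its counts in the 4 shPTBP1 libraries were 194, 188, 195 and 232, and in the 4 shSCR libraries 273, 355, 266 and 295. Normalized levels were 123, 124, 128 and 149 CPM with shPTBP1 and 168, 226, 177 and 189 CPM with shSCR. The highest shPTBP1 library lay under the lowest shSCR library. The means were 131 ± 12 and 190.0 ± 25.5 CPM (SD, n = 4 each; exact two-sided permutation test, p = 0.0286, the smallest that 4 against 4 can give). The log2 fold change was -0.54 (SE 0.10, 95% interval -0.75 to -0.32), which is a level of 0.689 times the control (edgeR quasi-likelihood test, adjusted p = 0.00885). DESeq2 gave an adjusted p of 0.00149.

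The call of MRPS34 held without any single library, and its main isoform held nearly the same share in both groups. Leaving out each library in turn gave log2 fold changes between -0.60 and -0.44, with edgeR adjusted p values between 0.00684 and 0.0387. MRPS34-202, a protein-coding isoform, held 91.4% of the gene's counts with shPTBP1 and 91.9% with shSCR (edgeR isoform test, adjusted p = 1.0). EME2, which overlaps the gene on the opposite strand, was at 0 in every library.

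The 250 bases before the RefSeq start of MRPS34 are printed because this was the called member, beside those of MRPL17, the member closest to the threshold on the higher side. The MRPS34 stretch is chr16:1773135-1773384 and the MRPL17 stretch chr11:6683341-6683590, both on the minus strand of GRCh38.p14 and written 5′ to 3′. Capitals mark matches on either strand to CCGGAAG, the core letters of ETS family sites (here as CTTCCGG, its reverse complement), and to CGCANGCG, the core of NRF1 sites.
MRPS34: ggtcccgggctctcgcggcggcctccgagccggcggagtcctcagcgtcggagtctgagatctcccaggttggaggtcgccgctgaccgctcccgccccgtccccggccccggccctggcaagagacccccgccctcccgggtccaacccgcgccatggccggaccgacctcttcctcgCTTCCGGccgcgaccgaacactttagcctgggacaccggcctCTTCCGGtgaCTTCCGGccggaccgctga
MRPL17: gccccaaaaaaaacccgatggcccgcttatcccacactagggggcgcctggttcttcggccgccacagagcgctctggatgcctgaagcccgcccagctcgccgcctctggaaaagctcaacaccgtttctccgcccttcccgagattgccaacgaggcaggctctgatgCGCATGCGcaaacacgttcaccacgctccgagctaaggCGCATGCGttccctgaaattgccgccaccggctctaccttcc
The MRPS34 stretch held 3 matches to CCGGAAG and none to CGCANGCG, and the MRPL17 stretch held 2 matches to CGCANGCG and none to CCGGAAG.

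RefSeq promoters, 250 bases before to 50 after the start, were at hand for 69 members. CCGGAAG occurred on either strand in 29 of them (42.0%), against 10.7% of all 27305 promoters. AAGATGGCG, letters of the YY1 site at gene starts, occurred in 13 (18.8%, against 1.85%), and CGCANGCG in 13 (18.8%, against 10.6%). For the RUNX core, TGTGGT was in 5 (7.25%, against 13.1%) and TGCGGT in 9 (13.0%, against 7.11%). These motifs were chosen after values of the members had been seen, and a match describes letters, not binding. The median log2 fold change of tested members with and without a match was 0.0154 and 0.0757 for CCGGAAG, 0.0819 and 0.0566 for AAGATGGCG, 0.0757 and 0.0672 for CGCANGCG, -0.0466 and 0.0676 for TGTGGT (5 members with it) and 0.0676 and 0.0672 for TGCGGT, differences that were not tested.

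Among the large subunit genes no member was called. Of 50 tested, 34 had a log2 fold change above 0 and 16 below, with a median of 0.06 and a range of -0.31 to 0.44. The lower end was held by MRPL49, a mitochondria-specific protein, and MRPL55. MRPL49 had 93.6, 80.6, 90.2 and 85.2 CPM with shPTBP1 and 89.7, 114, 123 and 107 with shSCR, so that the groups overlapped through the first shSCR library. The log2 fold change of -0.31 (SE 0.10) did not pass (edgeR adjusted p = 0.111), and without shSCR replicate 1 it was called lower, at -0.39 (adjusted p = 0.0423). MRPL55, the counterpart of bacterial L31, had 85.4 to 100 CPM with shPTBP1 and 104 to 127 with shSCR. Those ranges did not overlap, yet the log2 fold change of -0.26 (SE 0.09) did not pass the edgeR test (adjusted p = 0.127).

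On the higher side of the large subunit MRPL17, the counterpart of bacterial L17, had the smallest p and MRPL57 a slightly larger log2 fold change. Its levels were 64.5, 63.4, 64.5 and 53.8 CPM with shPTBP1 and 38.7, 38.8, 46.7 and 57.7 with shSCR. The highest shSCR library lay above the lowest shPTBP1 library, and edgeR gave a log2 fold change of 0.44 with SE 0.14 (adjusted p = 0.087). Without shSCR replicate 4 the gene was called higher, at 0.57 (adjusted p = 0.0336). With protein-coding transcripts alone the log2 fold change was 0.10 (edgeR adjusted p = 0.853), and 63.3% of MRPL17 counts belong to the retained-intron isoform MRPL17-202. MRPL24, the counterpart of bacterial L24, an early assembly protein, had 200.0 to 217 CPM with shPTBP1 and 163, 167, 174 and 211 with shSCR. A single shSCR library reached into the shPTBP1 range, and edgeR gave a log2 fold change of 0.24 with SE 0.09 (adjusted p = 0.125). Without that library, shSCR replicate 2, MRPL24 was called higher, at 0.33 (adjusted p = 0.0218). MRPL34, the counterpart of bacterial L34, had 122 to 139 CPM with shPTBP1 and 98.7 to 117 with shSCR, with no overlap and an edgeR adjusted p of 0.12 for a log2 fold change of 0.24. The other large subunit genes named for a small p on the higher side, MRPL15, MRPL57, MRPL53, MRPL3 and MRPL36, had log2 fold changes of 0.18 to 0.44 and edgeR adjusted p values of 0.108 to 0.195. MRPL3, the counterpart of bacterial L3 near the peptidyl transferase centre, had 262 to 302 CPM with shPTBP1 and 241 to 264 with shSCR. On the lower side MRPL41, MRPL9, MRPL40, MRPL16, MRPL21 and MRPL38 had log2 fold changes of -0.17 to -0.07 (edgeR adjusted p of 0.237 to 0.673).

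Among the small subunit genes 25 were tested, of which 13 had a log2 fold change above 0 and 12 below, with a median of 0.03. MRPS34 was 1 of 9 mitochondria-specific members tested. MRPS22, another of them, in which inherited mutations cause mitochondrial disease, had 129, 141, 139 and 138 CPM with shPTBP1 and 180, 146, 176 and 145 with shSCR. Those groups did not overlap but came within a few CPM of each other, and edgeR gave a log2 fold change of -0.24 with SE 0.09 (adjusted p = 0.14). MRPS31 had the largest fitted decrease of all members, -0.63, from 7.04 to 11.2 CPM with shPTBP1 and 10.3 to 16.7 with shSCR. With so few counts its interval ran from -1.18 to -0.08 (SE 0.26) and it did not pass the edgeR test (adjusted p = 0.196).

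Members of the small subunit on the higher side included MRPS7, MRPS35, MRPS24 and MRPS21. MRPS7, the counterpart of bacterial S7 and an early assembly protein of the subunit, had 257, 252, 276 and 284 CPM with shPTBP1 and 215, 233, 236 and 241 with shSCR. All 4 shPTBP1 libraries were above all 4 shSCR libraries. The log2 fold change of 0.21 (SE 0.07) did not pass the test (edgeR adjusted p = 0.104). MIF4GD and GGA3, which overlap MRPS7 on the opposite strand, had counts equal to 39.8% and 11.5% of those of MRPS7, and whether the counting used strand was not given in the sources used here. Such overlap touched 24 members, for which a gene on either strand had counts over 1% of the member's. Among them were MRPS14 (CACYBP, 202%), MRPS2 (PIERCE1, 78.2%) and, on the same strand, MRPS17 (NIPSNAP2, 40.3%). MRPS35, a mitochondria-specific protein, had 326 to 346 CPM with shPTBP1 and 282 to 318 with shSCR, again without overlap (log2 fold change 0.16, edgeR adjusted p = 0.187). MRPS24, the counterpart of bacterial S3 at the mRNA entry, and MRPS21 had log2 fold changes of 0.17 and 0.43 (edgeR adjusted p = 0.202 and 0.148). The small subunit genes MRPS27, MRPS17, MRPS33 and MRPS14 had log2 fold changes of 0.20 to 0.27 (edgeR adjusted p of 0.297 to 0.569), and MRPS18C, MRPS26, MRPS11, MRPS10 and MRPS2 had -0.26 to -0.08 (0.396 to 0.685). None of these 5 passed, and leaving out 1 library brought MRPS18C to -0.12, MRPS26 to -0.11, MRPS2 to -0.04 and MRPS10 to -0.02 at the nearest to 0. With protein-coding transcripts alone MRPS11 was at -0.00166.

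In all, the groups did not overlap for 8 of the 76 members (10.5%), against 12.7% of all genes tested. The 3 lower members were MRPS34, MRPL55 and MRPS22. The 5 higher members were MRPS7, MRPL34, MRPS35, MRPL46 and MRPL18, of which MRPL46 and MRPL18 were named after their values were seen. The share of all genes without overlap was 6.37% on the lower side and 6.32% on the higher side. A lack of overlap fixes the exact permutation p at its smallest value, 0.0286, so for these 8 members that p adds nothing.

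**Figure D2:**
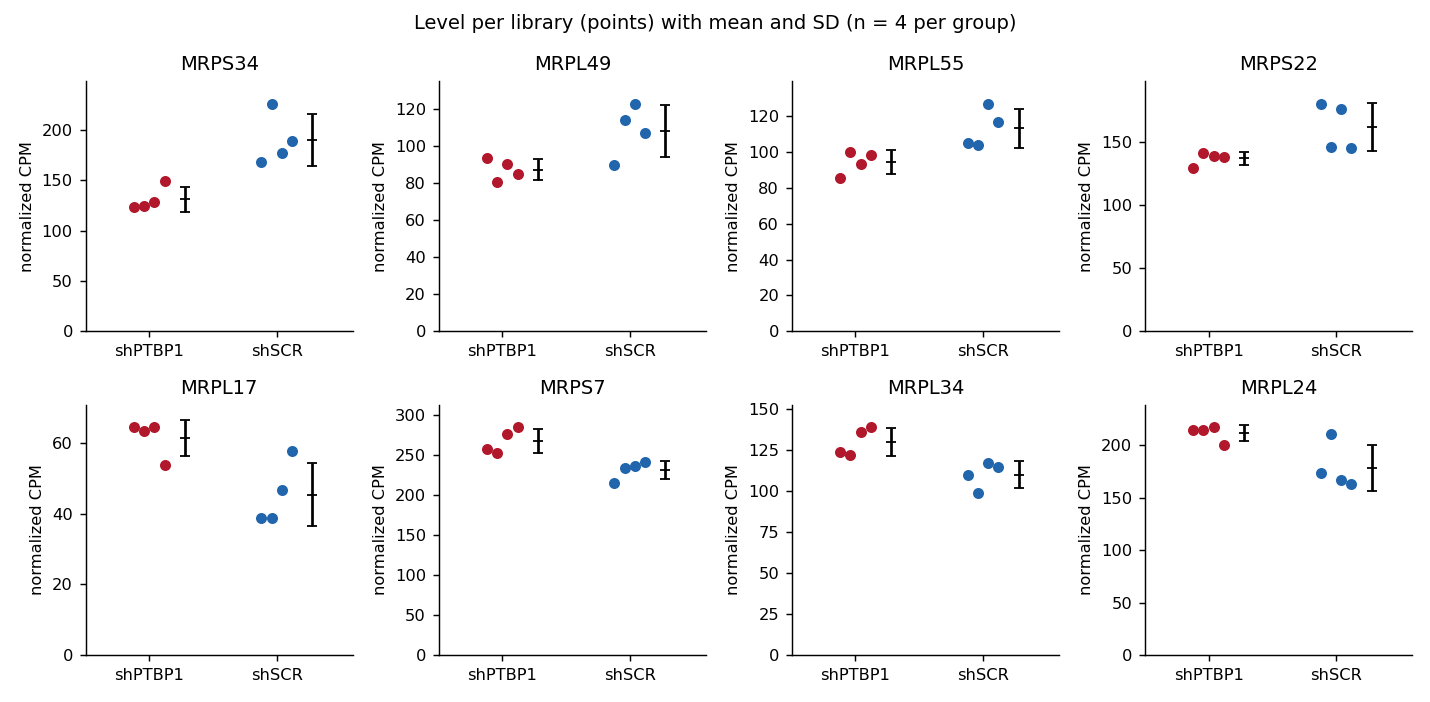
Normalized CPM (y axis, from 0) in each library for 8 members, with shPTBP1 in red and shSCR in blue; the bar beside the points is the mean ± SD (n = 4). MRPS34 sits between 123 and 149 CPM with shPTBP1 and between 168 and 226 with shSCR, while for MRPL49, MRPL17 and MRPL24 a library of 1 group reaches the range of the other.

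The summed level of the members was nearly level between the groups. Over all 78 members it was 10470, 11190, 11040 and 11200 normalized CPM in the shPTBP1 libraries and 10260, 10480, 10910 and 10710 in the shSCR libraries. The ranges overlapped, and the log2 ratio of the means was 0.05. As a share of the library, the members held 1.03% to 1.09% of the counts. The large subunit summed to 8195 ± 269 CPM with shPTBP1 and 7844 ± 251 with shSCR, and the small subunit to 2766 ± 75.3 and 2733 ± 93.7 (SD, n = 4). The log2 ratio of the small subunit changed sign with the scaling, from 0.017 on the normalized scale to -0.0217 with CPM of the library total. The ratio of large to small subunit RNA was 2.96 ± 0.0276 with shPTBP1 and 2.87 ± 0.123 with shSCR, and those ranges overlapped as well.

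**Figure D3:**
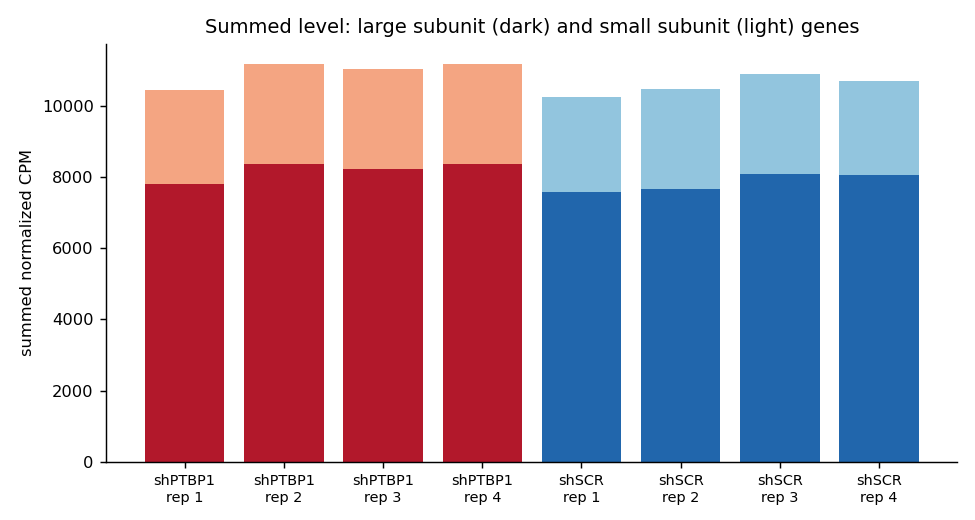
Bars give the summed normalized CPM of the large subunit genes (dark) and, stacked on it, the small subunit genes (light) in each library, in red for shPTBP1 and blue for shSCR. All 8 bars reach about the same height, with the large subunit at 7592 to 8378 CPM and the small subunit at 2651 to 2823.

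Between members the RNA levels differed far more than between groups. Divided by transcript length, the highest level among tested members was 687 times the lowest. MRPL33 was highest, with 1280 ± 126 CPM per kb with shPTBP1 and 1150 ± 58.5 with shSCR (SD, n = 4). MRPL52 followed with 1150 ± 56.1 and 1030 ± 86.5 CPM per kb. MRPL33 and MRPL52 are short proteins of the large subunit, and their ranges overlapped within each group. In the small subunit the highest were MRPS24 (446 ± 33.2 and 395 ± 20.1 CPM per kb) and MRPS6. At the low end were MRPL19 with 3.27 and 3.11 CPM per kb, MRPL30 with 3.79 and 3.80, and MRPS5 with 1.71 and 1.83, in the order shPTBP1 and shSCR. The median over tested members was 143 CPM per kb in the large subunit and 38.8 in the small subunit. Division by length places short transcripts higher, and whether it suits long-read counts was not tested. In CPM without that division, MRPL18 was highest, with 787 for shPTBP1 and 723 for shSCR, against 623 and 562 for MRPL33. MRPL19, with a length of 7.74 kb, had 25.3 and 24.1 CPM, above MRPL28 with 5.82 and 6.85. The order, the span and the medians per kb therefore depend in part on length. Across the 76 tested members, log2 levels of any pair of libraries correlated at 0.98 to 0.993 (Pearson, across genes, which are not independent replicates).

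Of the members that were not tested, MRPL23 was listed at 0 in all 8 libraries, which may be a failed estimate and does not show that its RNA was absent. It lies at chr11:1947278-1984522, has 10 annotated isoforms and encodes the counterpart of bacterial L23 at the exit of the peptide tunnel. MRPS25 had 6, 10, 9 and 12 counts with shPTBP1 and 2, 11, 5 and 4 with shSCR, too few for the filter. The 79 annotated pseudogene loci of the members held 7 counts in all, against 133967 for the members; reads that match a gene and its processed copy may have been lost to the authors' filter on mapping quality, which was not tested.

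**Figure D4:**
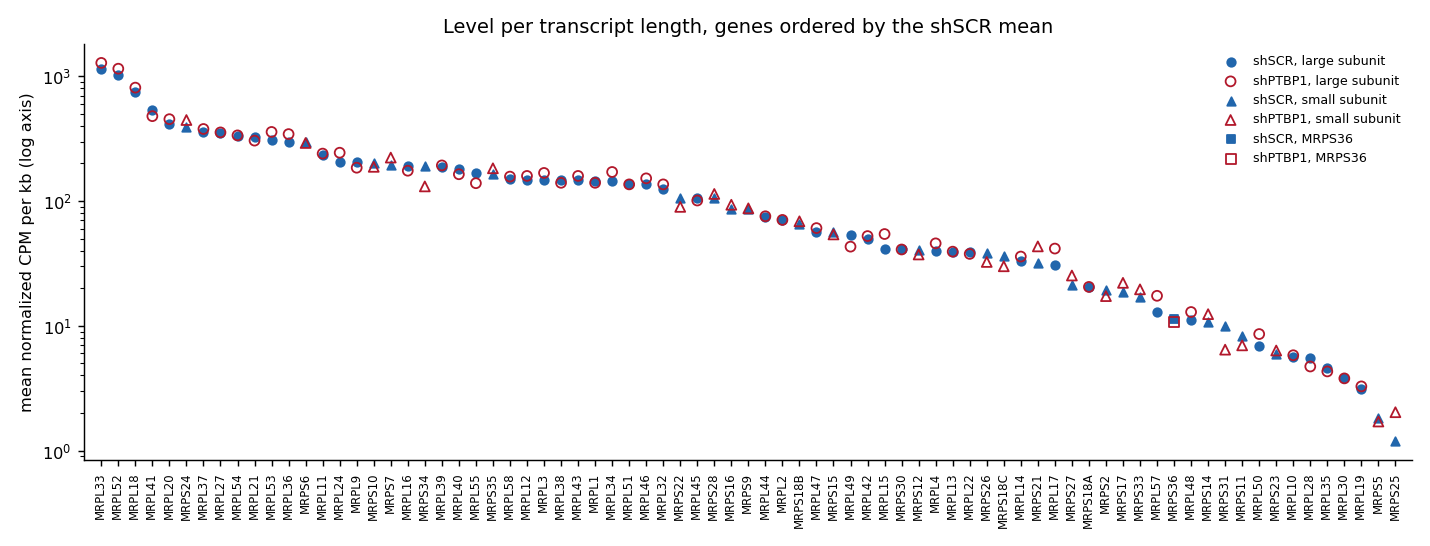
Mean normalized CPM per kb (log axis) of each member with counts, ordered by the shSCR mean; filled blue symbols are shSCR, open red symbols shPTBP1, circles the large subunit, triangles the small subunit and squares MRPS36. The order runs from MRPL33 at 1150 to MRPS25 at 1.19 CPM per kb in shSCR cells, and the open symbol of MRPS34 sits below its filled symbol.

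Long reads also gave the isoform each count came from. The members had 557 annotated transcripts, of which 333 had a count. In 45 members a single isoform held at least 90% of the counts. For 4 members the leading isoform was of a class not annotated as protein coding: a retained-intron isoform in MRPL17 (MRPL17-202, 63.3% of counts) and MRPS5, and an isoform annotated for nonsense-mediated decay in MRPL11 (MRPL11-206, 92.9%) and MRPS25. Over all members, protein-coding isoforms held 95.6% ± 0.119 of counts with shPTBP1 and 95.8% ± 0.16 with shSCR. Retained-intron isoforms held 0.731% ± 0.0828 and 0.607% ± 0.0424, with overlapping ranges. MRPL17-202 alone gave 61 to 69 of these counts per library with shPTBP1 and 34 to 49 with shSCR, so the class share need not describe the other members.

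No isoform of a member passed the test for a change of its share after PTBP1 KD. The edgeR isoform test covered 78 isoforms in 33 members. It called 0 of them at an adjusted p under 0.05 with a share change of at least 10 percentage points, against 1.12% of all 5464 isoforms tested. At an unadjusted p under 0.05 it gave 1 member isoform, against 6.37% of all, while limma's diffSplice gave 8 and also called 0. The median size of the share change was 1.45 points, and 2 isoforms, those of MRPL15, moved by at least 10 points, against 8.13% of all. MRPL15-203 was 56.0%, 52.6%, 50.6% and 64.0% of MRPL15 counts with shPTBP1 and 52.4%, 42.5%, 45.3% and 39.2% with shSCR. The groups overlapped and the gene had few counts (edgeR adjusted p = 1.0 for the isoform).

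MRPL33, the member with the highest level per length, has an exon 3 that part of its transcripts skip, and this isoform was chosen with its values known. The protein is the counterpart of bacterial L33. MRPL33-202 lacks this 107-base coding exon, which MRPL33-201 contains at chr2:27774424-27774530 on the plus strand. The exon is printed in capitals after the last 60 bases of the intron before it (hg38).
MRPL33 exon 3: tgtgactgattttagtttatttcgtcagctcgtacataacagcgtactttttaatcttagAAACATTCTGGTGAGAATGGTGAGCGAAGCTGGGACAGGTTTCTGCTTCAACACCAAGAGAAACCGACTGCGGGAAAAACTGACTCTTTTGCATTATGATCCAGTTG
The isoform without the exon held 17.5%, 23.5%, 22.2% and 19.9% of MRPL33 counts with shPTBP1 and 21.5%, 23.9%, 23.2% and 22.6% with shSCR. The ranges overlapped, and the means of 20.8% ± 2.63 and 22.8% ± 1.02 (SD, n = 4) did not pass an exact permutation test (two-sided p = 0.229). Each library had 148 to 224 counts of this isoform.

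MRPL40, a mitochondria-specific protein of the large subunit, held the isoform with the smallest p among members. MRPL40-202 ends its first exon 252 bases further into intron 1 than MRPL40-201 does. Both donor sites are shown as 20 exon and 20 intron bases of the plus strand of hg38, at chr22:19432588-19432627 for MRPL40-201 and chr22:19432840-19432879 for MRPL40-202, with the first 2 intron bases in capitals.
MRPL40-201 donor: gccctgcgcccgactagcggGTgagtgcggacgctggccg
MRPL40-202 donor: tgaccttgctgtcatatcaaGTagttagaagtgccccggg
MRPL40-202 had 16, 25, 16 and 25 counts with shPTBP1 and 12, 13, 13 and 10 with shSCR. As a share of MRPL40 this was 10.6% ± 2.57 and 5.54% ± 0.466 (SD, n = 4), and every shPTBP1 library was above every shSCR library. The edgeR isoform test gave an adjusted p of 0.115 and limma's diffSplice an adjusted p of 0.0374 for a change of 5.08 points that was under the limit of 10. GENCODE defines no coding sequence for this isoform. C22orf39 and HIRA overlap MRPL40 on the opposite strand, with counts equal to 22.8% and 10.9% of those of MRPL40. In all, 4 member isoforms (5.13%) had shares that did not overlap between groups, against 10.7% of all isoforms tested. Among them were MRPL40-201, MRPL40-202 and MRPL11-201. Only 2 isoforms of MRPL40 had counts, so the shares of MRPL40-201 and MRPL40-202 mirror each other and are the same observation.

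**Figure D5:**
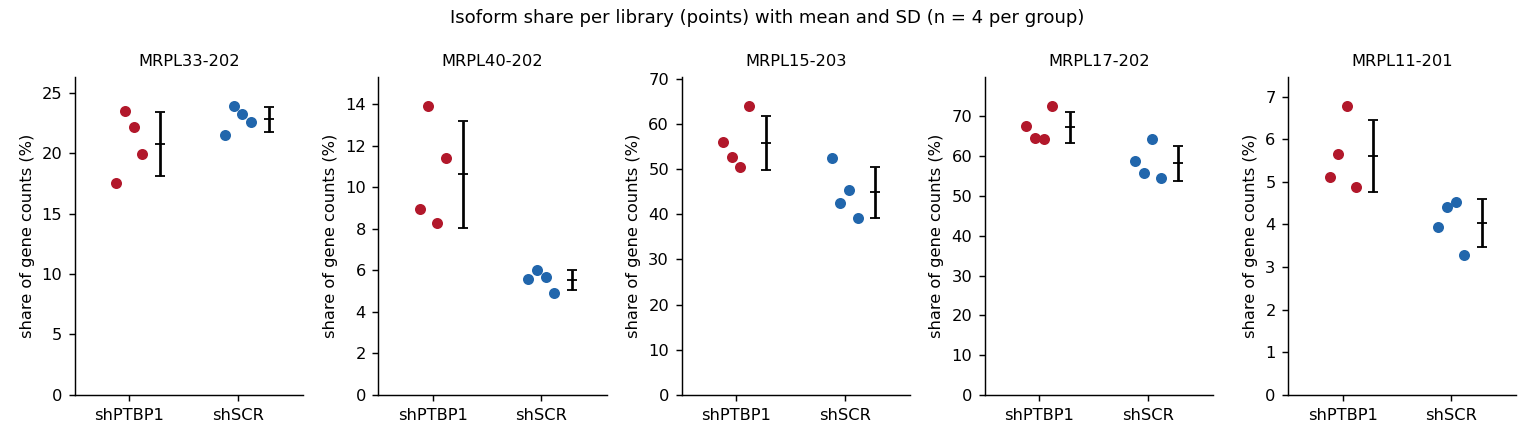
Share of the gene's counts (y axis, percent, from 0) held by 5 isoforms in each library, shPTBP1 in red and shSCR in blue, with mean ± SD (n = 4) beside the points. MRPL40-202 is at 8.25% to 13.9% with shPTBP1 and 4.90% to 6.02% with shSCR, while the groups overlap for MRPL33-202 and MRPL15-203.

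Other genes of mitochondrial translation were read from the same test. Of 5 mitoribosome genes with other names, 4 were tested and 0 called by edgeR; AURKAIP1, a small subunit protein, came closest with a log2 fold change of -0.24 (adjusted p = 0.107). Of 27 tested assembly factors 0 were called (median log2 fold change 0.05), and the same count held for 14 tested translation factors (median -0.01) and 13 tested genes of mitochondrial DNA expression (median 0.20). The 12 tested mRNAs of mitochondrial DNA, the templates of the mitoribosome, also gave 0 calls, with a median of 0.15. Among these 4 lists and the differently named genes, the counts at an unadjusted p under 0.05 were 3 assembly factors (11.1%), 4 translation factors (28.6%), 1 gene of mitochondrial DNA expression (7.69%), 3 mitochondrial mRNAs (25%) and 1 differently named gene (25%), against 19.2% of all genes.

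Levels of some of these templates differed between libraries of 1 group. MT-ND6, a complex I subunit encoded on the other strand of mitochondrial DNA, had 190, 53, 60 and 77 counts with shPTBP1 and 52, 46, 36 and 40 with shSCR. The groups did not overlap but the first shPTBP1 library stood far above the others, with a fitted log2 fold change of 1.14 and SE 0.34 (adjusted p = 0.0728 by edgeR and 0.0299 by DESeq2). MT-ATP6, an ATP synthase subunit, was high in the same library, with 744 counts against 187 to 247 in the other shPTBP1 libraries and 141 to 206 with shSCR (edgeR adjusted p = 0.143). The summed mitochondrial mRNA level was 5273 to 6024 CPM with shPTBP1 and 3661 to 5704 with shSCR.

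For comparison, the 37 nuclear complex I genes had 1 called lower and 1 called higher (5.41%, against 5.54% of all genes). NDUFC1 was lower, with 52 to 62 counts with shPTBP1 and 82 to 103 with shSCR (log2 fold change -0.67, edgeR adjusted p = 0.00944), and NDUFB8 higher (0.31, adjusted p = 0.0453). Of 81 tested genes of the cytoplasmic ribosome, 6 were called higher and 0 lower by edgeR (7.41%, against 2.36% of all genes called higher and 3.19% lower), and the median log2 fold change was 0.12, beside 0.05 for the mitochondrial ribosomal proteins. The difference between those medians was not tested.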

How the data were processed

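RNA of MOLM-13 cells was measured in 4 shPTBP1 and 4 shSCR libraries by nanopore cDNA sequencing. The authors used minimap2 for alignment to hg38, kept reads above a mapping quality limit and deposited whole-number counts per annotated transcript from StringTie, without normalization. The annotation version, the tool versions and the use of strand are not given in the sources used here. The deposited table named TPM holds CPM values, which equal each count divided by its library total to within 1e-06, and was used only in an alternative. Groups and replicate numbers came from the sample labels.

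Transcripts were joined to GENCODE version 44 (252562 of 254070 found) and summed per gene. Gene counts were normalized by TMM, filtered by filterByExpr (minimum count 10) and compared between groups in edgeR 4.0.16 by its quasi-likelihood test, with Benjamini-Hochberg adjustment over all 7597 genes. Normalized CPM used the TMM library sizes, and levels per kb the count-weighted length of each gene's isoforms. Intervals are 95% intervals of the fitted log2 fold change. Isoform shares were tested with diffSpliceDGE, and single values by exact permutation of the 8 libraries. Amplified cDNA molecules are not independent. The scripts were tested on simulated data.

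The alternatives were DESeq2 1.42.0, limma-voom and limma-trend (limma 3.58.1, log2 of CPM plus 1), other normalizations and filters, the replicate number as a block, thinning, protein-coding transcripts alone, leaving out each library, and for isoforms limma's diffSplice and other limits. The members, gene lists and marker lists were chosen with earlier results of these data known. Named members are the called one, the 8 with the smallest p in each direction in each subunit, the 2 highest and 2 lowest per length in each subunit, those not tested and the 5 with the smallest isoform p. Promoter sequences are from RefSeq (GRCh38.p14). The tools ran under R 4.3.3 and, for joins, exact tests and plots, under Python 3.11.15 (pandas 2.3.3, scipy 1.17.1, numpy 2.4.6).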

Additional observations from a re-analysis of the deposited data

Results flagged for a closer look

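Among 100 groups of 4 libraries, for the named members and the sums, 7 had a single library far from the other 3, where chance gives about 1 in 20. MRPL17 was 53.8 CPM in 1 shPTBP1 library and 63.4 to 64.5 in the others. MRPL24 was 200.0 CPM in 1 shPTBP1 library and 215 to 217 in the others. MRPL16 was 193 CPM in 1 shPTBP1 library and 188 in each of the others, a gap that is small in itself. MRPS11, with few counts, was 10.6 CPM in 1 shPTBP1 library and 16 to 17.1 in the others. Among shSCR libraries, MRPL33 was 604 CPM in 1 library and 546 to 549 in the others, and MRPS33 was 22.5 CPM in 1 library and 26 to 26.4 in the others. The summed small subunit level was 2650 CPM in 1 shPTBP1 library and 2800 in the others, to 3 digits.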

How the results depend on the processing

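MRPS34 was called lower under each of the 18 alternatives, with log2 fold changes of -0.60 to -0.44. Of 571 values of named members under the alternatives, 568 kept their direction and their side of the threshold, and the 3 that newly passed it were MRPL49, MRPL24 and MRPL17, each without 1 shSCR library. Without single replicates the count of members called lower was therefore 1 to 2 and of those called higher 0 to 1. The median log2 fold change of the members was 0.0957 with upper quartile normalization, where the median of all genes was 0.0455, and 0.00554 with limma-trend on log2 of CPM plus 1; over all alternatives it was above 0. Isoform calls were 0 under all 13 alternatives. The log2 ratio of the summed level ranged from 0.0128 to 0.0731 for all members, 0.0249 to 0.0858 for the large and -0.0217 to 0.0365 for the small subunit, and PTBP1 from -2.51 to -2.09. The background moved more: across alternatives 107 to 279 of all genes were lower and 77 to 260 higher, against 242 and 179, and DESeq2 gave 150 lower. Replicate numbers did not pair the libraries, since same-numbered libraries correlated at -0.0328 to 0.00889 after group means were removed; with the replicate block MRPS34 was at -0.53 (edgeR adjusted p = 0.0154), 1 member was lower, 0 were higher, the median was 0.0431 and 0 isoforms were called. Depth limits the 32 tested members with a mean under 100 counts, of which 10 had an interval within 0.5 of 0.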
